A study of Homo sapiens with 12 samples.

Results

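Afatinib added to romidepsin was compared with romidepsin alone in MYLA cells, an established human cell line of cutaneous T cell lymphoma (CTCL). The comparison takes 6 of the 12 bulk RNA-seq libraries of the study: 3 libraries of cells given 3.2 nM romidepsin and 5.7 uM afatinib dimaleate together (the combination), and 3 of cells given 3.2 nM romidepsin. The other 6 libraries are 3 of cells given 5.7 uM afatinib dimaleate and 3 of cells given the solvent DMSO. They were used to ask whether the change with afatinib was the same without romidepsin. All cells grew with 20 ng/mL interleukin 2, received matched volumes of DMSO and were lysed after 24 hours. The study set out to learn how the drugs act together. Nothing in the labels tells if the triplicates were cultured apart, and the p-values then speak only of the spread among these 12 libraries, which may be technical. The study used 1 cell line here, and each drug was given at 1 dose.

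Romidepsin inhibits class I histone deacetylases, the enzymes that take acetyl groups off histones and other proteins, and is used against CTCL. Afatinib binds covalently to a cysteine at the ATP site of the ERBB family of receptor kinases, and a few other kinases, among them the cytokine receptor kinase JAK3, carry a cysteine at the matching place. Cells that sense a lack of amino acids, unfolded protein or other stress phosphorylate the translation factor eIF2, which lowers protein synthesis in general but favours the transcription factor ATF4. ATF4 in turn switches on genes for amino acid supply and the factor CHOP, encoded by DDIT3.

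The 6 libraries held between 8972228 (romidepsin 2) and 12696653 (combination 2) reads assigned to genes, so that 3 reads equal 0.236 to 0.334 CPM, the unit of level used here, which scales the reads of each gene to a common library total. Genes with at least 1 read numbered 24528 ± 273 in combination libraries and 23669 ± 728 in romidepsin libraries (SD, n = 3 each, exact two-sided permutation p = 0.2). Mitochondrial genes took 11.9 ± 0.804% of the reads in combination libraries and 12.8 ± 0.955% in romidepsin libraries (exact p = 0.4, where 0.1 is the smallest p that 3 against 3 allows). The keratinocyte gene KRT5 had 43 reads in combination 1 and 0 in the other 5 libraries. The T cell identity of the line showed unevenly: CD3G, CD2, PTPRC and TRBC2 were measured, while CD3E, CD4 and LCK had at most 4 reads in each of the 6 libraries.

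Adding afatinib to romidepsin went with changes in 54.3% of the expressed genes. Rankings of single genes here leave out clone names, LINC genes and pseudogenes. Among called genes with at least 5 CPM and groups that did not overlap, CHAC1 (5.54) and DDIT3 (4.24), both of the ATF4 response, had the highest log2 fold changes, and the cytokine LTA (-2.79) and the interferon-inducible APOL3 (-2.75) the lowest. Of 16208 genes with enough reads to test, among 59050 in the table, edgeR's quasi-likelihood test called 8809 at a Benjamini-Hochberg adjusted p below 0.05. In the combination 4069 genes rose (25.1%) and 4740 fell (29.2%). That balance depends on the settings: 4794 rose and 3886 fell when libraries were scaled by their size alone, and 4337 rose and 4280 fell when the fit held only the 6 libraries compared. At least 2-fold changes were more often upward, with 1293 genes higher (7.98%) and 778 lower (4.8%). At least 4-fold changes counted 223 genes higher and 84 lower, and at least 8-fold changes 41 higher and 13 lower. All 3 combination libraries lay above all 3 romidepsin libraries for 4480 genes (27.6%) and below them for 5098 genes (31.5%). The median log2 fold change over all tested genes was -0.03, and the median size of a called change was 0.61 on the log2 scale. By gene type, 678 of 2225 long noncoding genes rose (30.5%) and 201 fell (9.03%), whereas 2984 of 11902 protein-coding genes rose (25.1%) and 4206 fell (35.3%). These types differ in level, with medians of 1.90 CPM for long noncoding and 26.4 CPM for protein-coding genes. Types were assigned by gene name, which left 351 tested genes unmatched.

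**Figure D1:**
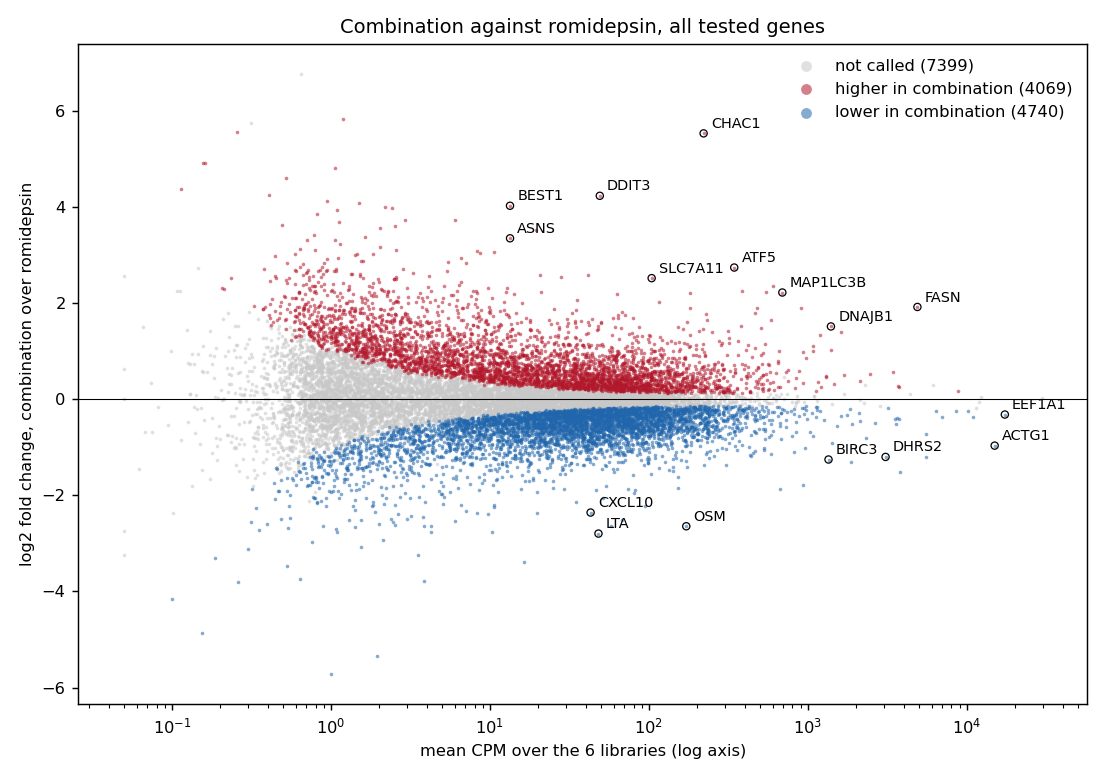
Log2 fold change of the combination over romidepsin (vertical axis) against the mean CPM of the 6 libraries (horizontal log axis) for the 16208 tested genes, with 4069 genes called higher in red, 4740 called lower in blue and the others in grey. CHAC1 (5.54), DDIT3 (4.24) and ATF5 (2.75) stand above zero and LTA (-2.79) and OSM (-2.64) below it.

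Genes of the ATF4 response formed the list with the highest median. Of 23 members of a list of ATF4 and CHOP targets, 18 were tested. In the combination 14 of them rose, 1 fell and 3 showed no call, and their median log2 fold change was 1.36. CHAC1, which breaks down glutathione, had 447, 398 and 452 CPM in the combination libraries, against 9.28, 8.59 and 9.79 CPM in the romidepsin libraries. That is a log2 fold change of 5.54 ± 0.09 (SE, edgeR adjusted p = 3.9e-42), and the libraries of the groups are far apart. DDIT3, the gene for the stress factor CHOP, had 94.3, 91.1 and 94.2 CPM in the combination libraries, against 4.64, 5.84 and 4.49 CPM in the romidepsin libraries (log2 fold change 4.24 ± 0.11, edgeR adjusted p = 2.23e-33). ATF5, a transcription factor under the same translational control as ATF4, had 602, 615 and 580.0 CPM in the combination libraries and 86.0, 92.8 and 89.1 CPM in the romidepsin libraries (log2 fold change 2.75 ± 0.06, edgeR adjusted p = 8.01e-38). ATF4 itself rose to 1871 ± 22.4 CPM in the combination, against 912 ± 25 CPM with romidepsin (SD, n = 3 each, log2 fold change 1.04). SESN2, a stress-induced inhibitor of mTORC1 signalling, rose by 2.60 on the log2 scale, with 29.3 to 38.8 CPM in the combination libraries and 5.30 to 6.62 CPM in the romidepsin libraries. The 1 member that fell was DDIT4, another mTORC1 inhibitor, named after its values were seen, at 343 ± 23.5 CPM in the combination and 711 ± 59.9 CPM with romidepsin (log2 fold change -1.05). SESN2 and DDIT4 therefore moved in opposite directions. DDIT3 shares 982 bases with the oppositely directed gene MARS (log2 fold change -0.06, not called), and ATF5 shares 1062 bases with NUP62 (log2 fold change -1.41), in a count that did not use strand.

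Amino acid supply rose with it. Of 17 tested genes for amino acid synthesis and transport, 11 rose and 3 fell, with 3 uncalled and a median log2 fold change of 0.71. ASNS, asparagine synthetase, had 25.6, 23.4 and 24.1 CPM in the combination libraries, against 2.32, 2.75 and 2.12 CPM in the romidepsin libraries (log2 fold change 3.36 ± 0.17, edgeR adjusted p = 7.14e-22). The cystine transporter is made of the chains encoded by SLC7A11 and SLC3A2, and both rose. SLC7A11, which an antisense gene overlaps, averaged 177 ± 20.2 CPM in the combination and 30.8 ± 1.01 CPM with romidepsin (SD, n = 3 each, log2 fold change 2.53), and SLC3A2 had 984 to 1041 CPM in the combination libraries and 186 to 218 CPM in the romidepsin libraries. PSAT1, an enzyme of serine synthesis, rose by 1.91 on the log2 scale. The enzymes that load amino acids onto transfer RNA did not follow: of 20 tested, 3 rose, 9 fell and 8 were not called (median -0.18). The alanyl enzyme AARS had 104 to 113 CPM in the combination libraries and 65.4 to 76.1 CPM in the romidepsin libraries, and the valyl enzyme VARS 52.7 to 63.3 CPM in the combination libraries and 130.3 to 154 CPM in the romidepsin libraries.

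Promoter sequence was read from RefSeq (GRCh38.p14) because ATF4, paired with C/EBP proteins, binds a composite element. The letters TGATGNAA were searched on both strands from 250 bases before to 50 bases after each gene start, and they occur in 4.46% of the 27305 genes with a promoter in the table and in 2.75% of the 10003 tested genes, of 16208, that were matched to it. They were found in 3 of the 12 matched members of the ATF4 list that rose (ATF3, CHAC1 and CEBPG) and in 4 of the 7 matched amino acid genes that rose (ASNS, SLC3A2, SLC1A4 and SLC1A5). Genes that fell held them too: GBP1, 1 of the 11 matched genes among the 15 largest falls, and IFIT3, 1 of 6 matched interferon list members. The stretches around the match are printed 5′ to 3′ on the gene's strand, with the match in capitals. CHAC1 carries it in reverse orientation at chr15:40953227-40953304, ASNS in forward orientation at chr7:97872434-97872511 (minus strand), and ATF3 at chr1:212565181-212565258.
CHAC1: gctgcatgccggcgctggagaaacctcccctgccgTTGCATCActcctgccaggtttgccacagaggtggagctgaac
ASNS: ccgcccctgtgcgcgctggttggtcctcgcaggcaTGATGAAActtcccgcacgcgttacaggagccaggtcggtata
ATF3: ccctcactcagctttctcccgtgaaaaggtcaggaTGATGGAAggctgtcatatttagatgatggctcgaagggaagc
A match describes letters and no binding was measured.

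Oxidant defence rose as well. Of 17 tested NRF2 targets, 12 rose and 2 fell, with 3 uncalled and a median log2 fold change of 0.59. TXNRD1, thioredoxin reductase, had 880.4, 948 and 870.1 CPM in the combination libraries, against 185, 207 and 179 CPM in the romidepsin libraries (log2 fold change 2.24 ± 0.06, edgeR adjusted p = 1.62e-33). SRXN1, which repairs oxidized peroxiredoxins, had 28.5, 27.7 and 46.8 CPM in the combination libraries and 6.96, 8.13 and 6.77 CPM in the romidepsin libraries, with combination 3 well above the other two. OSGIN1, an oxidative stress gene, had 22.2, 15.6 and 19.0 CPM in the combination libraries, against 3.26, 1.37 and 1.88 CPM in the romidepsin libraries (log2 fold change 3.07 ± 0.20). The groups did not overlap for any of these 3 genes. ABCC1, a glutathione-linked exporter, was 1 of the 2 that fell, at 5.49 ± 0.867 CPM in the combination and 7.79 ± 1.29 CPM with romidepsin (edgeR adjusted p = 0.00645), and there the libraries overlap.

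Lipid and lysosome genes moved the same way. Of 24 tested genes of cholesterol synthesis and uptake, 20 rose, 0 fell and 4 were not called (median 0.64). INSIG1, the sterol-regulated retention protein of SREBP, had 1433, 1486 and 1384 CPM in the combination libraries, against 366, 383 and 392 CPM in the romidepsin libraries. Log2 fold changes were 1.91 for INSIG1, 1.26 for the mevalonate kinase MVK and 1.21 for the synthase HMGCS1. FASN, fatty acid synthase, had 7819.8, 7153 and 8247 CPM in the combination libraries, against 2269, 1893 and 1947 CPM in the romidepsin libraries (log2 fold change 1.93 ± 0.06, edgeR adjusted p = 2.8e-28). Among 8 LXR targets of cholesterol efflux 3 rose, 3 fell and 2 were not called, and the desaturase gene SCD (1.15) and SREBF1 (0.79), which encodes the lipogenic factor SREBP1, were among the 3 that rose. Of 27 tested lysosome and autophagy genes, 19 rose, 3 fell and 5 were not called (median 0.52). MAP1LC3B, which encodes the autophagosome protein LC3B, had 1115, 1202 and 1098 CPM in the combination libraries, against 224, 268 and 239 CPM in the romidepsin libraries (log2 fold change 2.23 ± 0.06, edgeR adjusted p = 7.56e-33). The cargo receptor gene SQSTM1 had 711 to 781 CPM in the combination libraries and 190.0 to 219 CPM in the romidepsin libraries. The lysosomal sialidase NEU1 rose by 1.70 and the protective protein CTSA by 1.08 on the log2 scale.

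Endoplasmic reticulum genes split. Of 22 tested chaperones and unfolded protein response genes, 9 rose, 4 fell and 9 were not called (median 0.13). HERPUD1, a part of the machinery that removes misfolded proteins from the reticulum, had 310.1, 299 and 291 CPM in the combination libraries, against 63.0, 63.7 and 67.5 CPM in the romidepsin libraries (log2 fold change 2.21 ± 0.06, edgeR adjusted p = 3.12e-32). ERN1, which encodes the stress sensor IRE1, had 258 to 267 CPM in the combination libraries and 82.8 to 88.2 CPM in the romidepsin libraries. EDEM1, a mannosidase-like protein of the same disposal route, had 160.2 to 197 CPM in the combination libraries and 338 to 387 CPM in the romidepsin libraries (log2 fold change -1.05). HERPUD1 and EDEM1 thus changed in opposite directions with groups that did not overlap. Among 16 tested cytosolic chaperones 5 rose, 7 fell and 4 were not called. The heat shock protein gene DNAJB1 had 2033 to 2136 CPM in the combination libraries and 682 to 759 CPM in the romidepsin libraries (log2 fold change 1.52). Of the 2 cytosolic HSP90 genes, the inducible HSP90AA1 rose by 0.58 and the constitutive HSP90AB1 fell by 0.49 on the log2 scale.

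**Figure D2:**
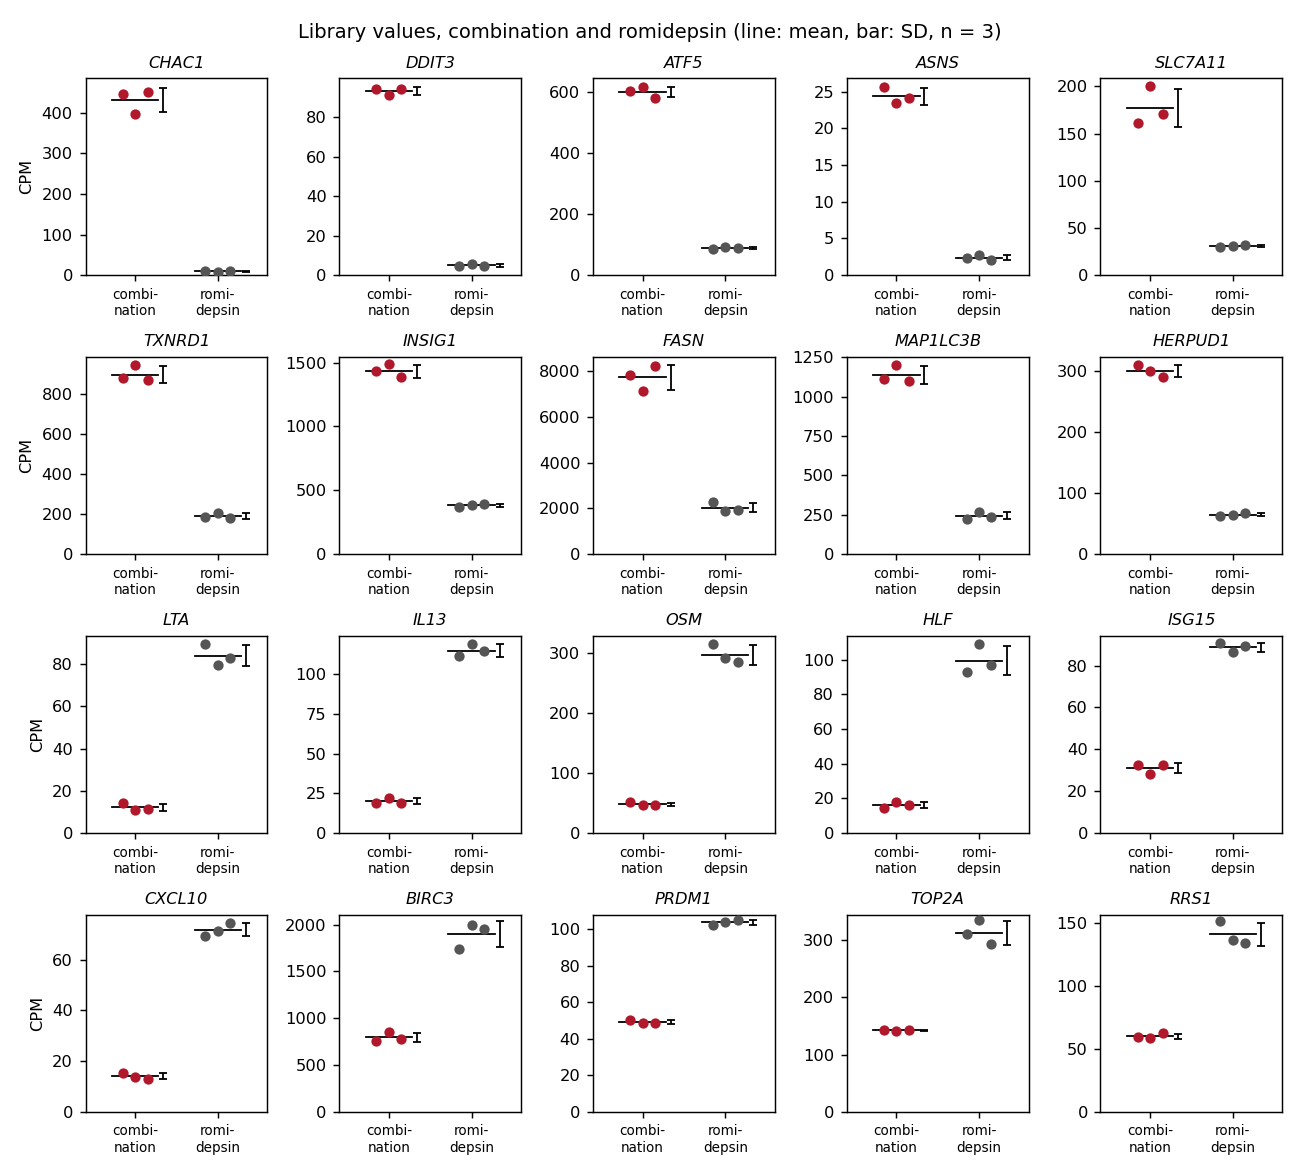
CPM of 20 genes in each of the 3 combination libraries (red, left) and the 3 romidepsin libraries (grey, right), each panel with an axis from 0, lines at the mean and bars of 1 SD (n = 3). Every panel shows groups that do not overlap, with the first 10 genes higher in the combination and the last 10 lower.

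Cytokine genes fell. Of 29 T cell cytokines and chemokines 14 were tested; 10 fell, 2 rose and 2 were not called, with a median log2 fold change of -1.22, the lowest of all lists. LTA, lymphotoxin alpha, had 14.1, 11 and 11.5 CPM in the combination libraries, against 89.4, 79.9 and 83.0 CPM in the romidepsin libraries (log2 fold change -2.79 ± 0.10, edgeR adjusted p = 8.76e-29). Its partner LTB had 2.52 to 3.43 CPM in the combination libraries and 13.2 to 18.1 CPM in the romidepsin libraries. IL13, a type 2 cytokine, had 18.8, 22.3 and 19.0 CPM in the combination libraries, against 111, 119 and 115 CPM in the romidepsin libraries (log2 fold change -2.52 ± 0.08, edgeR adjusted p = 8.94e-30). OSM, oncostatin M, an interleukin 6 family cytokine that STAT5 induces, had 50.7, 46.3 and 45.6 CPM in the combination libraries, against 314, 290.4 and 284 CPM in the romidepsin libraries (log2 fold change -2.64 ± 0.07, edgeR adjusted p = 1.44e-33). Groups that do not overlap were a condition for the 15 largest falls, which include LTA, LTB, IL13 and OSM. IL6 fell to 1.98 to 3.28 CPM in the combination libraries, against 13.3 to 14.8 CPM in the romidepsin libraries. The chemokine CXCL10 fell to 12.9 to 15.4 CPM in the combination libraries, against 69.5 to 74.6 CPM in the romidepsin libraries. IL4, named after its values were seen as 1 of the 2 cytokines that rose, had a log2 fold change of 1.65.

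Signalling and T cell genes were called lower more often than higher, as were all tested genes (29.2% lower and 25.1% higher). The medians of the NF-kB (-0.04) and TNF family (-0.07) lists changed sign when libraries were scaled by size alone. Of 22 tested JAK and STAT pathway genes 11 fell, 4 rose and 7 were not called (median -0.25), with the survival kinase PIM2 lower (-0.96), the interleukin 2 receptor chain IL2RB lower (-0.84) and PIM3 higher (1.07). STAT3, a factor active in CTCL, was not called (776 ± 6.57 CPM in the combination and 807 ± 14.8 CPM with romidepsin, edgeR adjusted p = 0.358). Of 20 NF-kB genes 8 fell, 4 rose and 8 were not called. The inhibitor of apoptosis BIRC3 had 761, 853 and 779 CPM in the combination libraries, against 1739, 2002 and 1956 CPM in the romidepsin libraries (log2 fold change -1.25 ± 0.06). The costimulatory receptor TNFRSF9 ran the other way, with 90.9 to 108 CPM in the combination libraries and 26.7 to 31.5 CPM in the romidepsin libraries (log2 fold change 1.75), and of 16 TNF family genes 7 fell, 3 rose and 6 were not called: CD40LG fell by 1.57 and the receptors TNFRSF4 and TNFRSF8 by 1.10 and 0.88 on the log2 scale. Of 25 tested T lineage transcription factors 14 fell, 3 rose and 8 were not called (median -0.33). BACH2, a repressor of effector genes, had 11.9 to 13 CPM in the combination libraries and 44.7 to 47.0 CPM in the romidepsin libraries, and PRDM1, which encodes BLIMP1, 48.6 to 50.1 CPM in the combination libraries and 102 to 105 CPM in the romidepsin libraries. IKZF1 and IKZF3, both Ikaros family genes, fell by 0.74 and 0.71 on the log2 scale.

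All 7 tested T cell markers fell. The 12 list members, tested or not, summed to 91.6 to 96.4 CPM in the combination libraries and 157 to 172 CPM in the romidepsin libraries. The marker sums in this paragraph are scaled by library totals alone, unlike the CPM of single genes. PTPRC (CD45) fell by 1.28, CD2 by 0.99 and CD3G by 0.96 on the log2 scale. Summed fibroblast, myeloid and keratinocyte markers were also lower in the combination libraries, while B cell and endothelial sums overlapped. Single members did not all fall. Of tested fibroblast markers 4 fell and 0 rose, of myeloid markers 2 fell and 1 rose, and of keratinocyte markers 4 fell and 1 rose (KRT10, 0.72). In all 6 libraries 5 of the 9 fibroblast, 7 of the 10 myeloid and 8 of the 16 keratinocyte markers had at most 1 CPM. No test was run on the sums. The 9 fibroblast markers summed to 48.6 to 52.8 CPM in the combination libraries and 62.2 to 68.9 CPM in the romidepsin libraries, with DCN and LUM at 0. The 10 myeloid markers summed to 22.1 to 24.2 CPM in the combination libraries and 36.7 to 42.6 CPM in the romidepsin libraries, with S100A8 and CD163 at 0. The 16 keratinocyte markers summed to 227 to 242 CPM in the combination libraries and 254 to 258 CPM in the romidepsin libraries, with KRT1 at 0, and the 9 B cell markers to 8.02 to 10.3 CPM in the combination libraries and 9.70 to 11.5 CPM in the romidepsin libraries, with MS4A1 at 0. The 8 endothelial markers summed to 0.653 to 1.58 CPM in the combination libraries and 0.582 to 2.45 CPM in the romidepsin libraries. The part of these markers in the other results was not tested. In bulk RNA, fewer cells of a kind and less RNA per cell cannot be told apart.

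More interferon-inducible genes fell than rose. Of the 20 tested on their list 10 fell and 3 rose, with 7 uncalled and a median log2 fold change of -0.30. ISG15, a ubiquitin-like modifier, had 32.5, 28.3 and 32.2 CPM in the combination libraries, against 90.6, 86.4 and 89.4 CPM in the romidepsin libraries (log2 fold change -1.52 ± 0.08). The groups were apart. The activating enzyme of ISG15, encoded by UBA7, rose instead, with 11.8, 12.5 and 12.8 CPM in the combination libraries and 2.06, 1.49 and 1.55 CPM in the romidepsin libraries (log2 fold change 2.84 ± 0.26). IRF7, a factor that amplifies interferon genes, had 18.6 to 19.7 CPM in the combination libraries and 6.42 to 8.16 CPM in the romidepsin libraries (log2 fold change 1.33), and the antiviral GTPase MX2 fell by 1.40. Outside that list, the interferon-inducible GTPase GBP1 (-2.33), the apolipoprotein APOL3 (-2.75), and the neighbours PARP9 (-2.18) and DTX3L (-2.21), whose proteins work as a pair, were among the 15 genes with the largest falls. Peptide loading genes fell too: 10 of 15 tested MHC class I pathway genes fell and 2 rose (median -0.50), with the immunoproteasome subunit PSMB8 at -1.39 and the class I transactivator NLRC5 higher at 0.71, and 5 of 6 tested MHC class II genes fell and 0 rose.

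Interferon-activated factors bind an element made of the letters GAAA, any 2 bases, and GAAA again. Promoters of genes that fell and of genes that rose were searched for this element in the same windows and on both strands. It occurs in 4.38% of the 27305 genes with a promoter in the table and in 4.1% of the 10003 matched tested genes. It was found in each of the 6 matched members of the interferon list that fell (IFIT3, IFI6, ISG15, IFIH1, RSAD2 and BST2), and in 4 of the 11 matched genes among the 15 largest falls (CXCL10, GBP1, DTX3L and PARP9). Among the 15 largest rises it was found in 1 of the 12 matched genes (ATF5). Interferon list members without a call were not counted, so the matches cannot be tied to the fall. The stretch for PARP9 lies where its promoter window shares 137 bases with that of DTX3L on the other strand, so that match is 1 stretch for both genes. Coordinates are chr1:1013349-1013434 for ISG15, chr4:76023674-76023747 for CXCL10, chr1:89065291-89065370 for GBP1 and chr3:122564301-122564376 for PARP9, the last 3 on the minus strand, with the match in capitals.
ISG15: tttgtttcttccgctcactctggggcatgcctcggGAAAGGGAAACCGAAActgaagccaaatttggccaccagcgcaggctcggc
CXCL10: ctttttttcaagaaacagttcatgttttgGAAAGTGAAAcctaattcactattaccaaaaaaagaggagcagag
GBP1: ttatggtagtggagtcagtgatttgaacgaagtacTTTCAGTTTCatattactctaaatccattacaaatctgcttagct
PARP9: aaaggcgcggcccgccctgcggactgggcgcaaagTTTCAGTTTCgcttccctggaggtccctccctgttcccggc
In ISG15 overlapping matches merge into 1 run of capitals. For the antioxidant element TGACNNNGC, which NRF2 binds, the share was 2 of 9 matched NRF2 targets that rose, against 19.5% of the 10003 matched tested genes and 16.1% of all genes in the table.

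Growth genes fell broadly by modest amounts. Of 41 tested G2 and M phase genes 35 fell, 2 rose and 4 were not called (median -0.69), and of 37 S phase genes 26 fell, 5 rose and 6 were not called (median -0.48). TOP2A, topoisomerase II alpha, named after its values were seen, had 142, 142 and 144 CPM in the combination libraries, against 311, 334 and 292 CPM in the romidepsin libraries (log2 fold change -1.13 ± 0.06, edgeR adjusted p = 3.18e-22). The mitotic kinase PLK1 had 48.7 to 54.2 CPM in the combination libraries and 106 to 122 CPM in the romidepsin libraries, and the helicase subunit MCM7 89.1 to 112 CPM in the combination libraries and 211 to 230.1 CPM in the romidepsin libraries. Both sets of libraries were apart for each of these 3 genes. Of 27 genes for homologous recombination and the Fanconi pathway 15 fell, 1 rose and 11 were not called, with FANCD2 at -1.20 and BRCA2 at -0.92. Among 16 CDK inhibitors and G1 cyclins 7 fell, 2 rose and 7 were not called. CDKN1A, the p21 gene and a familiar target of deacetylase inhibitors, fell slightly, to 1076 to 1095 CPM in the combination libraries, against 1238 to 1319 CPM in the romidepsin libraries (log2 fold change -0.24, edgeR adjusted p = 0.000124). MYC fell by 0.46 on the log2 scale, CDK4 by 0.61 and CDK6 by 0.64.

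The machinery of protein production and energy supply fell with them. Of 30 ribosome biogenesis genes 25 fell, 0 rose and 5 were not called (median -0.48). RRS1, a ribosome assembly factor, had 59.6, 58.3 and 62.3 CPM in the combination libraries, against 152, 137 and 134 CPM in the romidepsin libraries (log2 fold change -1.23 ± 0.07). UTP20, a component of the small subunit processome, fell by 1.61 and PES1 by 1.11 on the log2 scale. Of 26 proteasome subunits 22 fell, 0 rose and 4 were not called (median -0.55), with PSMD11 at -1.01. Of 31 nuclear-encoded respiratory chain subunits 18 fell, 0 rose and 13 were not called (median -0.46), and of 13 mitochondrially encoded messenger RNAs 9 fell, 1 rose and 3 were not called. The 1 that rose was MT-ND5, a subunit of complex I, with 9078, 10170.0 and 8961 CPM in the combination libraries and 8014, 7825 and 9113 CPM in the romidepsin libraries (edgeR adjusted p = 0.0497). There the libraries overlap. Of 30 glycolysis and hypoxia genes 17 fell, 5 rose and 8 were not called, with the mutase PGAM1 (-1.12) and the lactate dehydrogenase LDHA (-0.78) lower. The glucose transporter SLC2A3 was higher, at 877 to 917 CPM in the combination libraries and 268 to 293 CPM in the romidepsin libraries (log2 fold change 1.66). Of 30 tested cytosolic ribosomal protein genes 13 fell and 1 rose, with a median of -0.12.

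**Figure D3:**
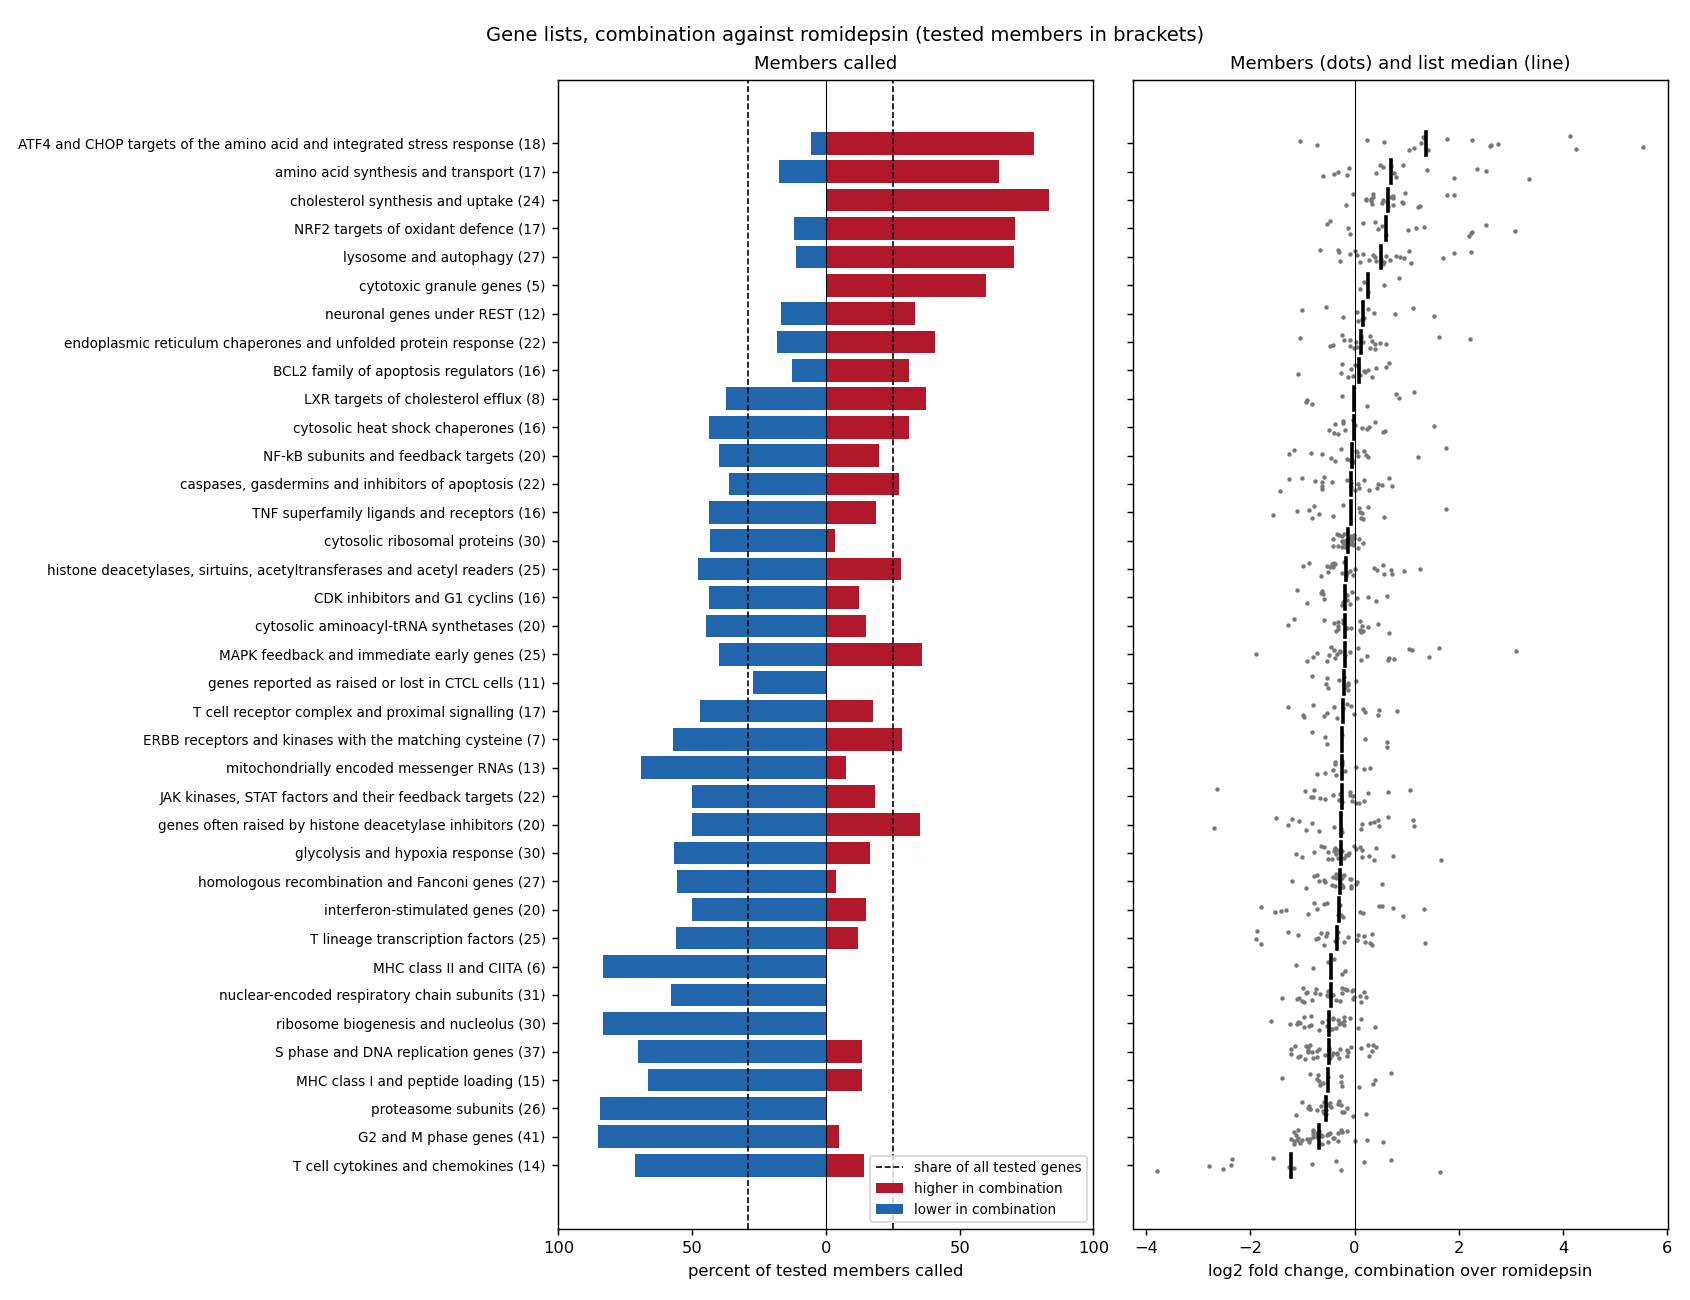
Left, percent of the tested members of each gene list called lower (blue, to the left) or higher (red, to the right) in the combination against romidepsin, with dashed lines at 29.2% and 25.1%, the shares of all tested genes. Right, log2 fold change of each tested member (dots) and the list median (line): the ATF4 list has the highest median, 1.36, and the T cell cytokines the lowest, -1.22.

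Genes that decide cell death were called in both directions, to be read against 25.1% of all tested genes higher and 29.2% lower; the caspase list lies near those shares. In the BCL2 family 5 of the 16 tested rose and 2 fell, with 9 uncalled. PMAIP1, which encodes the killer protein NOXA, had 1026, 1135 and 1025 CPM in the combination libraries, against 669, 735 and 706 CPM in the romidepsin libraries (log2 fold change 0.59 ± 0.05, edgeR adjusted p = 2.72e-13). BBC3, which encodes PUMA, rose by 0.42, BCL2L12 by 0.66 and the protective BCL2 itself by 0.33 on the log2 scale. Of 22 caspases, gasdermins and inhibitors of apoptosis 6 rose, 8 fell and 8 were not called. The initiator caspase CASP9 had 41.1 to 45.4 CPM in the combination libraries and 24.4 to 28.4 CPM in the romidepsin libraries, and DIABLO, which blocks inhibitors of apoptosis, rose by 0.66. The inhibitor BIRC5, survivin, had 87.7 to 97.7 CPM in the combination libraries and 179.6 to 189 CPM in the romidepsin libraries (log2 fold change -1.01). The groups were apart for CASP9, BIRC5 and BIRC3. GADD45A and GADD45B, both stress-induced growth arrest genes, rose by 1.19 and 1.13 on the log2 scale.

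Genes tied to the targets of either drug were measured in the same way. Of 12 ERBB receptors and kinases with the matching cysteine 7 were tested, 4 fell, 2 rose and 1 was not called. ERBB2 had 9.20, 7.41 and 9.55 CPM in the combination libraries, against 5.33, 4.35 and 7.01 CPM in the romidepsin libraries (log2 fold change 0.62 ± 0.19, edgeR adjusted p = 0.00412), and its span holds parts of PGAP3 and MIEN1 on the other strand. EGFR had 0 to 6 reads in the combination libraries and 2 to 13 in the romidepsin libraries, and ERBB3 6 to 18 reads in the combination libraries and 1 to 6 in the romidepsin libraries, too few to test. JAK3 fell by 0.23 and the kinase MAP2K7 by 0.83, while the cytoplasmic tyrosine kinase TEC rose by 0.63 with overlapping groups. Of 25 MAPK feedback and immediate early genes 9 rose, 10 fell and 6 were not called (median -0.19). Over all tested genes 25.1% rose and 29.2% fell. SPRY4 and SPRED1, both feedback inhibitors of the RAS to ERK route, rose by 3.09 and 1.11, as did the ERK-regulated factor ETV5 by 1.61. They were named for the size of their changes and do not stand for the 10 members that fell. SPRY4 had 14.6, 17.6 and 12.6 CPM in the combination libraries and 2.32, 1.03 and 1.71 CPM in the romidepsin libraries. HDAC1 and HDAC3 were not called (edgeR adjusted p = 0.0538 and 0.7), HDAC2 fell by 0.65 and HDAC10 rose by 0.95 on the log2 scale. Of 20 tested genes that deacetylase inhibitors often raise 10 fell, 7 rose and 3 were not called (median -0.25). DHRS2, a reductase, had 1919.9, 1808 and 1888 CPM in the combination libraries, against 4318, 4057 and 4501 CPM in the romidepsin libraries (log2 fold change -1.20 ± 0.05), and the histone gene HIST2H2BE fell by 0.92 and the redox regulator TXNIP by 0.39. The neuronal tubulin TUBB3 rose by 1.12 and the repressor REST fell by 0.55. The exporter ABCB1, known to remove romidepsin from cells, had 0 to 2 reads in each of the 6 libraries.

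Most of the remaining genes named here belong to no list above. DNAJB13, a cochaperone of cilia and sperm, had 16, 17.1 and 13.5 CPM in the combination libraries, against 2.23, 1.03 and 2.12 CPM in the romidepsin libraries (log2 fold change 3.06 ± 0.23). The organic anion transporter SLCO2B1 rose by 3.73, the growth factor FGF22 by 2.96 and IQCN by 2.59 on the log2 scale. BEST1, a chloride channel, rose by 4.03 with 24.7 to 26.1 CPM in the combination libraries and 0.734 to 2.75 CPM in the romidepsin libraries, but it shares 5798 bases with the ferritin gene FTH1, which itself rose by 1.33, and reads of the pair cannot be told apart without strand. NBR2, a long noncoding RNA on the strand opposite to BRCA1, had 46.9 to 49.3 CPM in the combination libraries and 7.47 to 8.59 CPM in the romidepsin libraries (log2 fold change 2.55), while BRCA1 was not called (log2 fold change -0.08). The span of NBR2 shares 28121 bases with that of BRCA1 and 5304 with AC060780.1 (log2 fold change 1.16), again in a count without strand. HLF, a circadian family transcription factor, had 14.3, 17.8 and 16 CPM in the combination libraries, against 92.9, 109 and 97.0 CPM in the romidepsin libraries (log2 fold change -2.63 ± 0.10, edgeR adjusted p = 3.44e-26). The kinase gene PRKCE fell by 2.22, the cannabinoid receptor CNR1 by 2.37, PLAAT4 by 2.53 and PALM2 by 2.20. Among the genes with the highest CPM that were called, the elongation factor EEF1A1 fell by 0.31 and the actin ACTG1 by 0.96, while SOCS3, a STAT-induced feedback inhibitor, rose by 0.26 and the chaperone CALR by 0.29 on the log2 scale.

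The same addition was then measured without romidepsin, between the other 6 libraries, which share the scaling, the filter and the estimate of spread with the first comparison. Afatinib against DMSO called 7351 of the 16208 genes (45.4%), 3571 higher (22%) and 3780 lower (23.3%). When libraries were scaled by their size alone, 62.2% of its calls were upward, against 48.6% under TMM scaling. Of the 4069 genes that rose in the combination against romidepsin, 1899 also rose with afatinib alone, which is 46.7% of those 4069 and 53.2% of the 3571. Of the 4740 that fell, 2498 also fell with afatinib alone, which is 52.7% of those 4740 and 66.1% of the 3780. Across genes the log2 fold changes of the comparisons had a Pearson correlation of 0.51 and a Spearman correlation of 0.52, as a description over 16208 genes that are not independent.

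The interaction asks whether the change with afatinib differed between cells with and without romidepsin, and it called 4898 genes (30.2%). The value was higher with romidepsin for 1895 genes (11.7%) and lower for 3003 (18.5%). Opposite calls were a small part: 372 genes fell in the combination against romidepsin but rose with afatinib against DMSO, and 265 rose in the first and fell in the second. All of them were called in the interaction, which opposite called changes make nearly certain in advance. Among the 1905 genes that rose in the combination and were not called with afatinib alone, the interaction called 763.

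**Figure D4:**
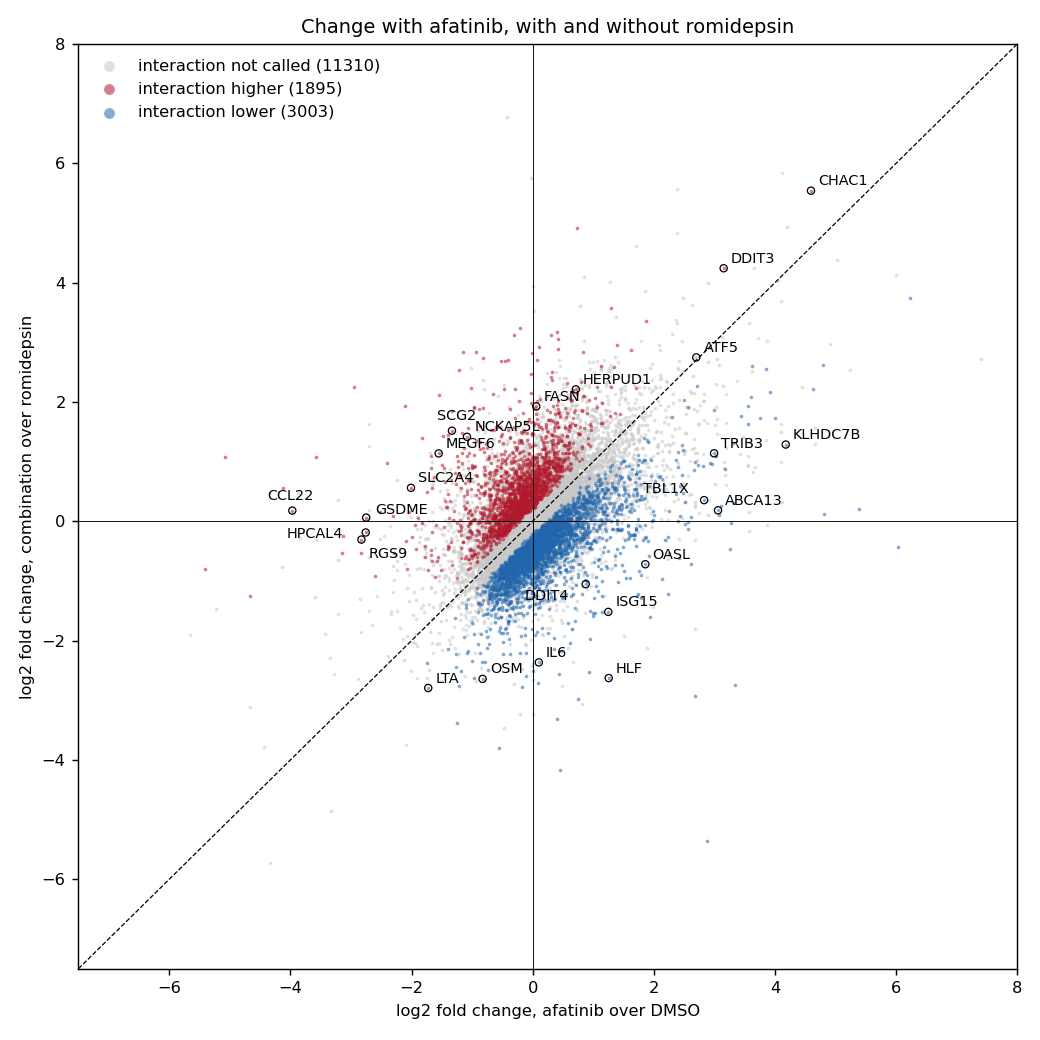
Log2 fold change of the combination over romidepsin (vertical axis) against that of afatinib over DMSO (horizontal axis) for 16208 tested genes, with the 1895 and 3003 genes whose interaction was called higher and lower in red and blue. The dashed line marks equal change; ATF5 lies close to it and CHAC1 above it, both far from zero, while FASN, SCG2, HLF and KLHDC7B lie far from it.

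Most members of the ATF4 response rose with and without romidepsin but by different amounts. Within the list of 18 tested members, 16 rose with afatinib against DMSO, and the interaction was lower for 10 and higher for 3. The list median was 1.36 with romidepsin and 2.71 without it. Of the 17 tested amino acid genes 15 rose with afatinib against DMSO, and the interaction was lower for 7 and higher for 1. Their median was 0.71 with romidepsin and 1.12 without it. CHAC1 averaged 432 ± 30 CPM in the combination and 9.22 ± 0.600 CPM with romidepsin, and 84.6 ± 5.49 CPM with afatinib and 3.55 ± 1.04 CPM with DMSO (SD, n = 3 each). Its interaction of 0.95 ± 0.19 (SE, edgeR adjusted p = 6.98e-05) lies on the higher side, with those of DDIT3 (1.09) and ATF4 (0.21). ATF5 showed no call (0.05, edgeR adjusted p = 0.696). TRIB3, a pseudokinase target of CHOP, averaged 42.7 ± 2.39 CPM in the combination and 19.5 ± 2.24 CPM with romidepsin, and 305 ± 13 CPM with afatinib and 38.3 ± 2.20 CPM with DMSO (interaction -1.86 ± 0.11, edgeR adjusted p = 7.09e-18). DDIT4 averaged 343 ± 23.5 CPM in the combination and 711 ± 59.9 CPM with romidepsin, and 153 ± 10.6 CPM with afatinib and 83.5 ± 10.9 CPM with DMSO, so that it fell in the first pair and rose in the second (interaction -1.93 ± 0.10). For the 20 tRNA synthetases afatinib alone raised 12 and the interaction was lower for 13. The tryptophanyl enzyme WARS averaged 201 ± 5.12 CPM in the combination and 147 ± 5.31 CPM with romidepsin, and 484 ± 5.95 CPM with afatinib and 162 ± 2.28 CPM with DMSO (interaction -1.12 ± 0.08). TRIB3, DDIT4 and WARS were named after their values were seen.

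Most called chaperone genes lay on the higher side of the interaction. The interaction was higher for 11 and lower for 3 of the 22 endoplasmic reticulum genes, and higher for 10 and lower for 2 of the 16 cytosolic chaperones. FASN averaged 7739.6 ± 551 CPM in the combination and 2036 ± 203 CPM with romidepsin, and 1622 ± 76.4 CPM with afatinib and 1556 ± 112 CPM with DMSO, so that the rise was seen with romidepsin and not called without it (interaction 1.87 ± 0.09, edgeR adjusted p = 3.99e-21). HERPUD1 averaged 300.0 ± 9.71 CPM in the combination and 64.7 ± 2.41 CPM with romidepsin, and 60.1 ± 0.466 CPM with afatinib and 36.6 ± 0.259 CPM with DMSO (interaction 1.5 ± 0.09). HSPA5, the main reticulum chaperone BiP, named after its values were seen, averaged 2405 ± 43.5 CPM in the combination and 1835 ± 64.4 CPM with romidepsin, and 1101 ± 39.1 CPM with afatinib and 1437 ± 104 CPM with DMSO. It rose in the first pair and fell in the second (interaction 0.77 ± 0.08, edgeR adjusted p = 2.36e-11). TXNRD1 and DNAJB1 rose in both pairs and more with romidepsin (interactions 1.18 and 1.16). TXNRD1 is an NRF2 target and does not stand for its list. Of the 17 tested NRF2 targets the interaction was higher for 5, lower for 7 and not called for 5. EDEM1 again differed from its group, with an interaction of -1.57. Cholesterol genes rose in both settings: afatinib alone raised 16 of 24, and the interaction was higher for 5, lower for 5 and not called for 14. Over all tested genes the interaction was higher for 11.7% and lower for 18.5%.

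Interferon-inducible genes lay on the lower side. Afatinib alone raised 13 and lowered 5 of the 20, and the interaction was lower for 14 and higher for 1. ISG15 averaged 31 ± 2.34 CPM in the combination and 88.8 ± 2.15 CPM with romidepsin, and 56.4 ± 2.44 CPM with afatinib and 23.8 ± 2.14 CPM with DMSO (interaction -2.77 ± 0.12, edgeR adjusted p = 1.44e-23). The gene thus fell when afatinib joined romidepsin and rose when afatinib was given alone, and OASL, an antiviral synthetase-like protein, did the same (interaction -2.58). IFIT2, an antiviral binder of RNA, named after its values were seen, rose in both pairs, averaging 53.1 ± 7.03 CPM in the combination and 27.8 ± 0.415 CPM with romidepsin, and 137 ± 3.76 CPM with afatinib and 19.5 ± 2.20 CPM with DMSO (interaction -1.89). Among growth genes the interaction was lower for 11 and higher for 7 of the 41 G2 and M genes, and lower for 21 and higher for 3 of the 37 S phase genes. List counts of the interaction are to be read against 18.5% of all tested genes lower and 11.7% higher. The G2 and M genes are not far from those shares. For ribosome biogenesis afatinib alone lowered 28 of 30, and the interaction was higher for 6, lower for 5 and not called for 19.

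The genes with the largest interactions and at least 5 CPM over the 12 libraries had several kinds of pattern. SCG2, a secreted neuropeptide precursor, averaged 91.1 ± 2.22 CPM in the combination and 31.9 ± 2.09 CPM with romidepsin, and 7.74 ± 0.996 CPM with afatinib and 19.4 ± 3.04 CPM with DMSO, a rise in the first pair and a fall in the second (interaction 2.85 ± 0.15, edgeR adjusted p = 6.38e-20). NCKAP5L (2.50), MEGF6 (2.69) and the glucose transporter SLC2A4 (2.57) had the same pattern. CCL22, a chemokine that attracts CCR4-bearing T cells, averaged 1.92 ± 0.419 CPM in the combination and 1.65 ± 0.513 CPM with romidepsin, and 2.95 ± 0.704 CPM with afatinib and 46.8 ± 4.17 CPM with DMSO (interaction 4.15 ± 0.34). Its level was low in every group that received a drug, as was that of the pore-forming protein gene GSDME, at 1.87 ± 0.311 CPM in the combination, 1.74 ± 0.834 CPM with romidepsin, 2.75 ± 0.500 CPM with afatinib and 18.5 ± 0.237 CPM with DMSO. HPCAL4 and RGS9 were high in both groups with romidepsin and low in the other 2, with HPCAL4 at 19.1 ± 0.341 CPM in the combination, 21.8 ± 1.51 CPM with romidepsin, 0.0930 ± 0.0922 CPM with afatinib and 0.686 ± 0.483 CPM with DMSO. On the lower side, HLF averaged 16 ± 1.73 CPM in the combination and 99.6 ± 8.36 CPM with romidepsin, and 6.25 ± 1.33 CPM with afatinib and 2.65 ± 0.708 CPM with DMSO (interaction -3.88 ± 0.22). KLHDC7B averaged 5.66 ± 0.852 CPM in the combination and 2.36 ± 0.259 CPM with romidepsin, and 131 ± 3.26 CPM with afatinib and 7.18 ± 1.00 CPM with DMSO (interaction -2.89 ± 0.25). ABCA13 and TBL1X were likewise raised by afatinib alone and not called in the combination against romidepsin. IL6 fell by 2.36 with romidepsin and was not called without it (interaction -2.47 ± 0.33, edgeR adjusted p = 4.51e-08).

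**Figure D5:**
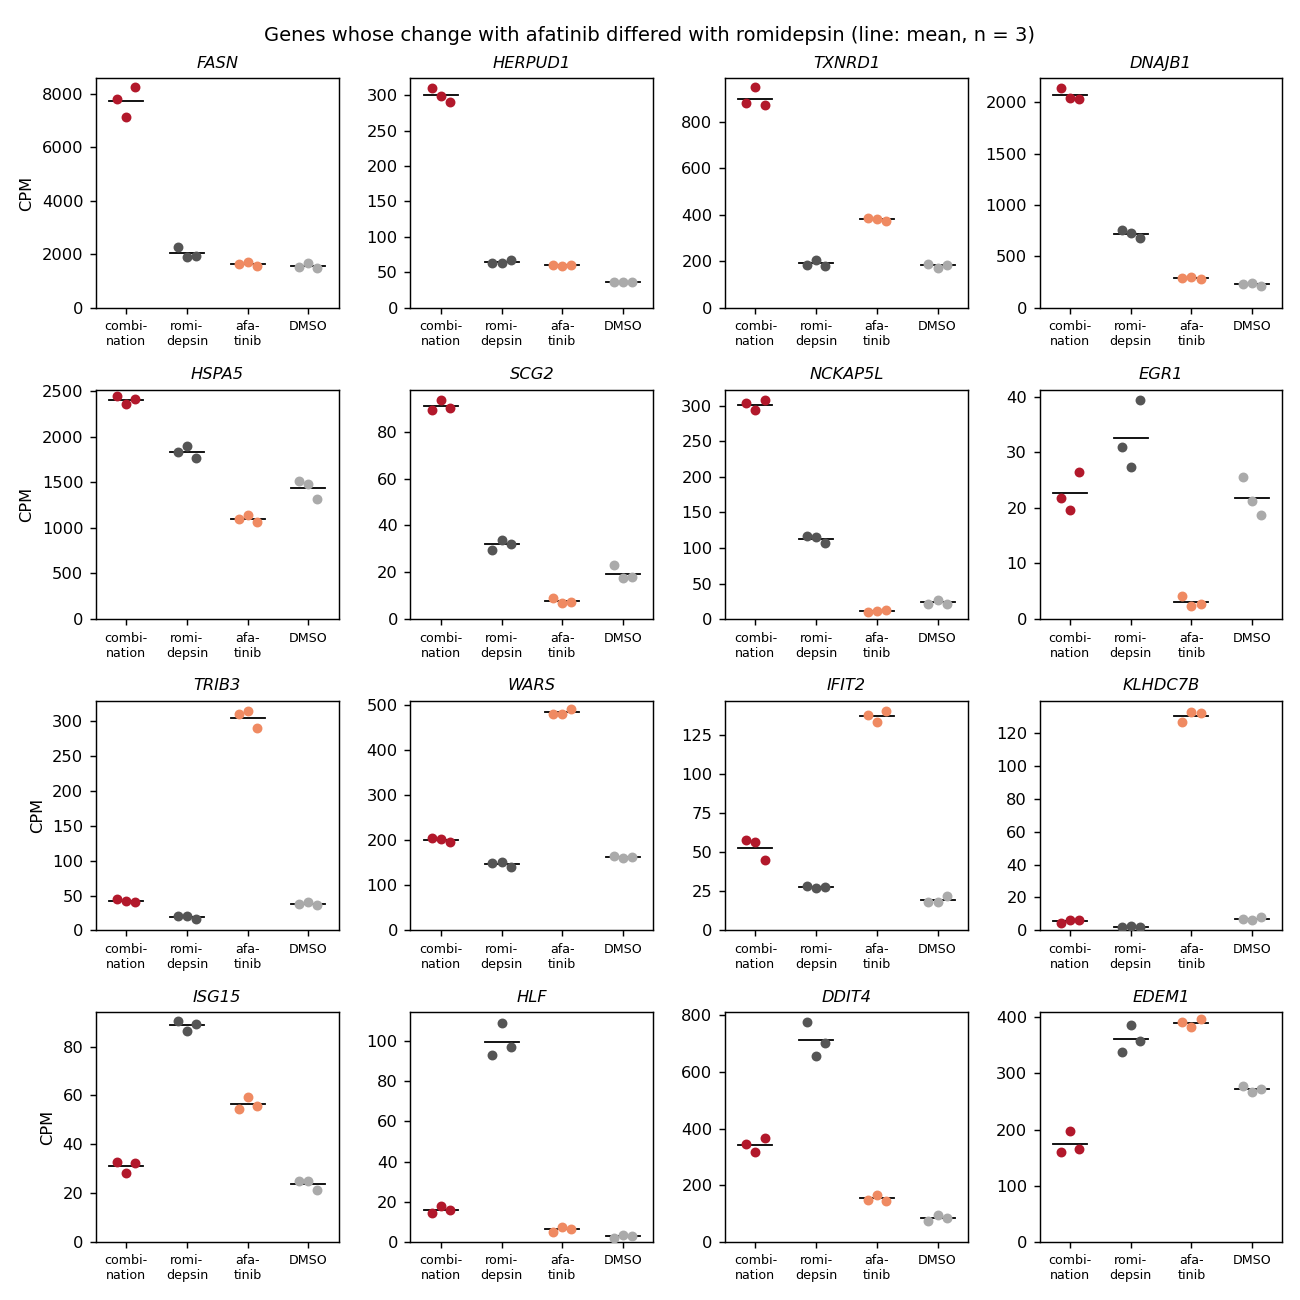
CPM of 16 genes in the 3 libraries of each group (combination, romidepsin, afatinib and DMSO from left to right), with axes from 0 and lines at the mean (n = 3); HSPA5, EGR1, TRIB3, WARS, IFIT2 and DDIT4 were chosen after their values were seen. FASN, HERPUD1 and NCKAP5L are highest in the combination, TRIB3, WARS, IFIT2 and KLHDC7B with afatinib alone, and ISG15, HLF and DDIT4 with romidepsin alone.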

How the data were processed

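Bulk RNA-seq libraries of MYLA cells (4 groups, 3 libraries each) were analysed from the deposited table of read counts per gene. Per the file headers, the authors counted fragments with featureCounts 2.0.0 over exons by gene name, without strand, keeping read pairs mapped together on 1 chromosome. Per the submitters' processing notes, the tools were STAR 2.7.9a, featureCounts and DESeq2 1.38.1, with the build GRCh38.p12. A second deposited table was not used: its columns hold codes that follow the text order of the counts, not their size.

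Here edgeR 4.0.16 (R 4.3.3) was run on the counts as deposited: filterByExpr, TMM scaling, robust quasi-likelihood fit of 4 group means over 12 libraries, contrasts for combination against romidepsin, afatinib against DMSO and their difference (the interaction), Benjamini-Hochberg adjustment over 16208 genes, threshold 0.05. CPM values use TMM-scaled library sizes. Library facts used exact two-sided permutation tests. Genes were named by rule: the 15 largest changes each way among called genes with at least 5 CPM and groups that do not overlap, the 8 largest interactions each way, up to 4 called members of each list, the 5 called genes each way with the highest CPM, and a fixed set of drug target genes. The largest changes, the largest interactions and the highest CPM were ranked without clone names, LINC genes and pseudogenes. The members and lists were chosen with earlier results of these data known, and no set test was run. A few genes that the rule names are not reported here. Of 207 genes named by the rule, 77 overlap another tested gene in span. Promoter letters came from RefSeq (GRCh38.p14). The procedure was tested on simulated data, with 50 genes changed at each of the sizes given here. For combination against romidepsin it recovered 28% of 1.25-fold and 70% of 1.5-fold changes. For the interaction it recovered 6% and 50%, so an interaction that was not called does not show equal change. Alternatives were other scaling and filters, DESeq2 1.42.0, a replicate block, only the libraries compared, leaving out each library, and leaving out libraries with at least 10 KRT5 reads. No columns were left unmapped.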

Additional observations from a re-analysis of the deposited data

Results flagged for a closer look

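A test of the difference itself, the interaction, set apart 1895 genes whose change with afatinib was higher with romidepsin than without it and 3003 for which it was lower. The change was downward with romidepsin and upward without it for 372 genes, and the reverse for 265.

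This ranking also leaves out clone names, LINC genes and pseudogenes. Among genes with at least 5 CPM on average over the 12 libraries, the largest positive interactions on the log2 scale were 4.15 for CCL22, 2.85 for SCG2, 2.81 for GSDME, 2.69 for MEGF6, 2.57 for SLC2A4, 2.57 for HPCAL4, 2.52 for RGS9 and 2.50 for NCKAP5L. CCL22 and GSDME were low in every group that received a drug and were not called in combination against romidepsin. Their positive values come from the fall with afatinib alone. HPCAL4 and RGS9 were low without romidepsin. Negative ones of that level included -3.88 for HLF, -2.89 for KLHDC7B, -2.88 for ABCA13, -2.77 for ISG15, -2.58 for OASL, -2.48 for TBL1X and -2.47 for IL6. Just under that level, PLAAT4 had an interaction of -3.45 and DNAJB13 one of 2.65. Groups of 3 libraries were too small for a test of single outlying libraries.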

How the results depend on the processing

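The counts of genes called in combination against romidepsin and in the interaction stayed within 1.5 times under every alternative run. For afatinib against DMSO, leaving out the 4 libraries with at least 10 KRT5 reads gave 2164 genes higher and 1998 lower, with combination 1, afatinib 3, DMSO 1 and DMSO 2 left out, so that the lone DMSO library is assumed to vary like the other groups, also for the 1292 interactions higher and 2086 lower found then; the other alternatives kept its counts within 1.5 times. Leaving out 1 library at a time gave 3568 to 4350 genes higher and 4435 to 4954 lower for the combination, 1211 to 1431 at least 2-fold higher and 736 to 835 at least 2-fold lower, 1643 to 1823 interactions higher and 2551 to 2973 lower, and 3126 to 3631 higher and 3185 to 3842 lower for afatinib against DMSO. Replicate numbers did not pair the libraries (correlations of deviations between same-numbered combination and romidepsin libraries were 0.04, 0.09 and 0.01), and with a replicate block 4013 genes were higher and 4685 lower. DESeq2 called 3979 higher and 4211 lower. When scaled by library size alone 4794 were higher and 3886 lower, and the median of all genes moved from -0.03 to 0.06; the medians of the NF-kB, TNF family and cell death lists changed sign there, and those of cytosolic chaperones and LXR targets also under RLE scaling, DESeq2 and several other settings. Of the list counts 61 values moved by over 1.5 times and 1779 did not, most often the count of mitochondrially encoded genes higher, which is MT-ND5 alone, and of the list medians 45 moved and 874 did not. Of the values of single named genes under the alternatives, 4404 kept direction and side of the threshold, 34 lost the call, 5 gained it and 0 reversed. Depth limits what can be called for genes near 3 reads, or 0.236 to 0.334 CPM.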
